A study of Mus musculus with 4 samples.

Results

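The mouse genes described here are those whose symbol is exactly Zfp followed by a number of 600 or more. They were chosen by symbol from the gene table of the study, with no use of measured values, and number 166 of the 30282 genes in the table. The number is a naming convention and marks no family or function. Most of these genes encode proteins with tandem C2H2 zinc fingers, small zinc-binding folds that read DNA sequence, and many of those proteins begin with a KRAB box.

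KRAB zinc finger proteins form a large family of DNA-binding repressors in mammals. The fingers bind a DNA sequence, often inside a transposable element, and the KRAB box recruits TRIM28 (also called KAP1), which brings the histone H3K9 methyltransferase SETDB1, heterochromatin proteins and the NuRD deacetylase complex to the site. In mouse embryonic stem cells this system is known for silencing endogenous retroviruses and for protecting methylation at imprinted loci. The genes lie in clusters that grew by duplication, so that neighbours are often near copies.

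The cells were V6.5, a mouse embryonic stem cell line, with an mAID-GFP tag on RPB3, the core RNA polymerase II subunit encoded by Polr2c, and their poly(A) RNA was sequenced. The culture medium held CHIR99021 and PD0325901, inhibitors of GSK3 and MEK that maintain the stem cell state. The mAID tag is a degron: once the plant receptor TIR1 is made, the auxin IAA causes the tagged protein to be degraded. All cells carried the tag and all received doxycycline (1 µg/ml, 12 h), which turns on TIR1. The untreated group (2 libraries) received nothing further, and the IAA group (2 libraries) was then given 500 µM IAA for 12 h according to the sample labels. A sentence of the treatment text speaks of 1 h of depletion, and this difference is not resolved. IAA on cells without the tag was not analysed here, and whether the tagged line was 1 clone was not given in the sources used here. Nothing in the labels says that the libraries of a group came from separate cultures, so the spread behind each p-value is that of these libraries and may be technical.

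The libraries held 8724737 and 8794680 whole reads in genes in the untreated group and 9194432 and 8779401 in the IAA group. Values are the deposited normalised read counts, which are reads divided by a size factor for the library. Polr2c stood at 2726 and 2885 normalised reads untreated and 3242 and 3158 after IAA, which does not check the treatment because the degron acts on the protein. The 10 embryonic stem cell markers were all present, with sums of 63082 to 66583 normalised reads. Of these, 4 were called higher and 4 lower (limma, adjusted p under 0.05). Of 14 markers of 2-cell-like cells 12 were in the table, with sums of 53 to 97. Of 10 feeder fibroblast markers 5 were in the table, summing to 232 and 274 untreated and 139 and 156 after IAA. The 3 of them that were tested were called lower. The sums were 177 to 228 for endoderm, 194 to 253 for mesoderm and 1672 to 2149 for neural markers. Among these, 1 mesoderm and 1 neural marker were called higher, and no endoderm or 2-cell-like marker was called. Over all genes tested, 11.1% were called higher and 28.9% lower. The part of these cell types in the results below was not tested.

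The KRAB box is shown first because most members carry one, and then the promoters of a few members that are near copies. A letter pattern of the KRAB A box was found in the translated coding sequence of 115 members. It was not found in 48, and 3 members (Zfp660, Zfp783 and Zfp939) have no coding sequence in the annotation. In each of the 115 the matched stretch of 39 bases lay within 1 exon. A protein outside the pattern may still have a diverged KRAB box. The sequences below, 5′ to 3′ on the coding strand from GENCODE M21 transcripts on GRCm38, belong to 2 members that rose after IAA (Zfp612 and Zfp809), 2 that fell (Zfp773 and Zfp688), the KRAB member of highest level (Zfp871) and Zfp931, which also fell. Capitals mark the codons that the pattern holds.
Zfp612: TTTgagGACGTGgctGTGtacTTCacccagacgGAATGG
Zfp809: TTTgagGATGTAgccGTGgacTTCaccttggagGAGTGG
Zfp773: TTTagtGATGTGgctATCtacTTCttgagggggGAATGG
Zfp688: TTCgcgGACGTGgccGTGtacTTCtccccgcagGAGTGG
Zfp871: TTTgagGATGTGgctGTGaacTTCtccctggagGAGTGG
Zfp931: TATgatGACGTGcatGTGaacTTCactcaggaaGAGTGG
These stretches lie at chr8:110083669-110083707 in exon 3 (plus strand, Zfp612), chr9:22235032-22235070 in exon 2 (plus strand, Zfp809), chr7:7135368-7135406 in exon 2 (minus strand, Zfp773), chr7:127421885-127421923 in exon 1 (minus strand, Zfp688), chr17:32777477-32777515 in exon 2 (minus strand, Zfp871) and chr2:178069899-178069937 in exon 2 (minus strand, Zfp931). The 115 members hold 93 different stretches. The stretch of Zfp931 is letter for letter that of 6 other members (Zfp965, Zfp966, Zfp967, Zfp968, Zfp970 and Zfp973), and another stretch is shared by 6 members of chromosome 4.

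The second set shows the bases upstream of transcription starts for 2 groups of near copies, chosen because members of each group were called in the same direction with the deposited scaling. The windows are RefSeq promoters on GRCm38.p6, cut before any annotated exon. In the first group, the window of Zfp977 (chr7:42592548-42592795, minus strand) is set beside those of Zfp936 (chr7:43177340-43177587, plus strand), Zfp975 (chr7:42692743-42692968, minus strand) and Zfp976 (chr7:42642605-42642854, minus strand). In the other group, Zfp971 (chr2:178023034-178023283, plus strand) is set beside Zfp931 (chr2:178078477-178078675, minus strand). Capitals mark bases with no identical partner in the alignment with the first sequence of the group.
Zfp977: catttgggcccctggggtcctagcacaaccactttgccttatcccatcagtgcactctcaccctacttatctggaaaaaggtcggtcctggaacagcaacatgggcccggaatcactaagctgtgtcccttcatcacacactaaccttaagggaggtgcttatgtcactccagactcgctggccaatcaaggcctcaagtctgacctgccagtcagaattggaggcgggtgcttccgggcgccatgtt
Zfp936: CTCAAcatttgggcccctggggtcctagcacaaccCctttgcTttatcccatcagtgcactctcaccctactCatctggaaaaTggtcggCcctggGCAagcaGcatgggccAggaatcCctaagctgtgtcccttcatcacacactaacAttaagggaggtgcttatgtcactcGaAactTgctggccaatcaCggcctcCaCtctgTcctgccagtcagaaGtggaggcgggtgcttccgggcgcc
Zfp975: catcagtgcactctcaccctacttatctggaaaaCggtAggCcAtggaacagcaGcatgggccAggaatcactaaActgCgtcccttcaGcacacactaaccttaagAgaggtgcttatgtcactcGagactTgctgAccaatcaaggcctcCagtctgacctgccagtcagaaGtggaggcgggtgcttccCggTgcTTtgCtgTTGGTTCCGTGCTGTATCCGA
Zfp976: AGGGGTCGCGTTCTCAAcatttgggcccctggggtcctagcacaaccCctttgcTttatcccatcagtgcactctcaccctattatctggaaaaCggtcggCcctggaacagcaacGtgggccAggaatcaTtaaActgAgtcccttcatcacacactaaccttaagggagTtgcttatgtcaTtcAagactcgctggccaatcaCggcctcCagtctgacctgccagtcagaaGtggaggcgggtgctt
Zfp971: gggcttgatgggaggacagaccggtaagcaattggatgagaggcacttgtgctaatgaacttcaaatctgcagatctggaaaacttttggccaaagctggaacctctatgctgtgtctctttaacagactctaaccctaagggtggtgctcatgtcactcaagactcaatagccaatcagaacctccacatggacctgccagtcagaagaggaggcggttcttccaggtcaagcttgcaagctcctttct
Zfp931: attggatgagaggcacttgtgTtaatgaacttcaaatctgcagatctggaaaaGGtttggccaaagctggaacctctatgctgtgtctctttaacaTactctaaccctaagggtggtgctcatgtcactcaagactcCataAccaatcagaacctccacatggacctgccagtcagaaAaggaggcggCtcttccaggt
Over the full 250 bases, Zfp936 was 91.8% identical to Zfp977 across 245 aligned bases, Zfp975 90.2% across 205 and Zfp976 93.6% across 233. Zfp931 was 96.4% identical to Zfp971 across 220 aligned bases.

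After IAA, Zfp612, Zfp629, Zfp977, Zfp786, Zfp936, Zfp711 and Zfp719 rose the most among the members, by 0.91 to 1.71 on the log2 scale, and Zfp773, Zfp879, Zfp931, Zfp658 and Zfp688 fell the most, by 0.75 to 1.24. Most members moved little. Of the 153 members with a mean of at least 10 normalised reads, 25 (16.3%) were called higher and 16 (10.5%) lower (limma, adjusted p under 0.05 over all 14928 genes tested). Over all genes tested, 11.1% were called higher and 28.9% lower. The median log2 fold change was 0.05 in the members and -0.11 over all genes tested. In these bulk libraries, fewer cells of a type and less RNA per cell cannot be told apart.

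The split between rises and falls moved with the scaling of the libraries. With median-of-ratios factors computed from the whole reads, which assume that most genes do not change, 43 members were called higher and 11 lower, against 20.4% and 20.5% of all genes tested. Rises made up 61.0% of the calls with the deposited scaling and 79.6% with median-of-ratios factors. The median of all genes moved from -0.11 to -0.01 between these scalings, and that of the members from 0.05 to 0.15. A change of factors moves every gene by about the same amount. The distance between the medians, 0.16 in both, could therefore hardly differ and is no check. All 25 rises and 11 of the 16 falls were also called with median-of-ratios factors. The shift was upward and made each rise larger, so the keeping of the rises was favoured in advance. With any 1 library left out, the limma calls were all lost, among members and among all genes. By voom on the whole reads, the median log2 fold change was then 0.11 to 0.16 over members and -0.005 to 0.002 over all genes tested. Without the filter on low values, 2 members (1.2%) were called higher and 1 (0.60%) lower by limma, against 0.59% and 2.11% of all genes. The share of all normalised reads taken by the members was 0.450% and 0.448% in the untreated and 0.484% and 0.489% in the IAA libraries.

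Without regard to a test, both IAA libraries lay above both untreated libraries for 50 members (32.7%) and below them for 40 (26.1%), against 22.5% and 45.6% of all genes tested. Within 0.25 of 0 on the log2 scale lay 97 members (63.4%), against 53.2% of all genes tested. Changes of at least 0.5 that passed the test were found for 13 members upward (8.50%, against 3.03% of all genes) and 7 downward (4.58%, against 10.4%). In the authors' deposited table, 5 of the 134 members with an adjusted p were higher and 3 lower at 0.05, against 2.47% and 9.57% of the genes with an adjusted p. Those 8 are Zfp612, Zfp977, Zfp936, Zfp617 and Zfp809 upward and Zfp773, Zfp692 and Zfp688 downward.

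**Figure D1:**
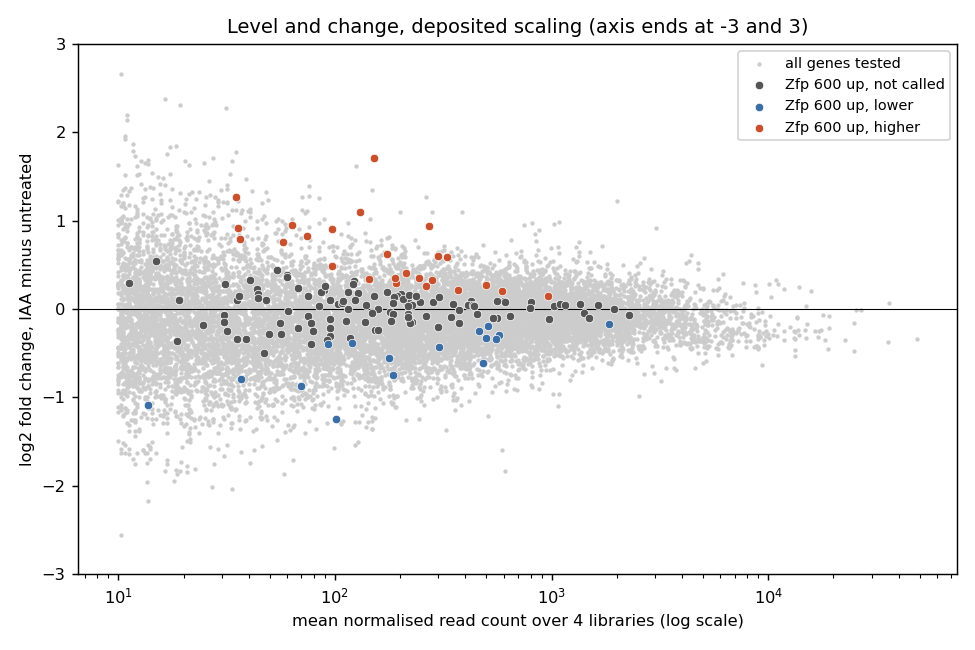
Log2 fold change, IAA minus untreated, against the mean normalised read count over 4 libraries (log axis) for all 14928 genes tested (grey) and the 153 tested members (coloured by call). Members called higher (25) and lower (16) lie across most of the range of levels, and the 6 most abundant members lie near 0.

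Among the rises, Zfp612 (chr8:110079746-110092741, plus strand), a KRAB gene with 16 fingers, was counted at 69 and 72 normalised reads untreated and 239 and 226 after IAA. Its log2 fold change was 1.71 (SE 0.13, limma adjusted p = 6.30e-09), the largest rise of the tested members. The libraries of each group lay close together and far from the other group. Zfp629 (chr7:127607031-127615797), which lacks the KRAB pattern and has 19 fingers, was counted at 17 and 23 untreated and 56 and 43 after IAA. It rose by 1.27 (SE 0.27, limma adjusted p = 0.00083) from one of the lowest levels among the called members. Zfp786 (chr6:47819266-47830867, KRAB) went from 34 and 53 to 87 and 79, a rise of 0.95 (SE 0.21, limma adjusted p = 0.0014) with no overlap between the groups.

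Zfp711 (X chromosome, no KRAB pattern) is a close relative of the zinc finger proteins Zfx and Zfy, and its human ortholog is linked to X-linked intellectual disability. It was counted at 27 and 22 untreated and 49 and 45 after IAA, a rise of 0.92 (SE 0.25, limma adjusted p = 0.0060). Zfp719 (chromosome 7, KRAB) was counted at 65 and 69 untreated and 119 and 134 after IAA, a rise of 0.91 (SE 0.15, limma adjusted p = 0.00011). Both groups of Zfp719 were tight, and the IAA libraries stood well above the untreated ones. Zfp672 (chromosome 11, no KRAB pattern) was less even, at 119 and 154 untreated against 218 and 202, a rise of 0.63. Zfp758 (chromosome 17, KRAB) stood at 45 and 40 untreated and 66 and 79 after IAA, a rise of 0.75.

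Zfp809 (chr9:22225714-22243354) is a KRAB protein known for binding the primer binding site of murine leukaemia virus and related endogenous retroviruses and for silencing them through TRIM28. It was counted at 268 and 255 normalised reads untreated and 372 and 420 after IAA. The rise was 0.59 (SE 0.09, limma adjusted p = 2.73e-05), with both IAA libraries above both untreated ones. Zfp617 (chr8:71908635-71934629, KRAB) rose by 0.60 from 239 and 234 to 345 and 376, but 42.2% of the 50-base words of its transcripts also occur in transcripts of other genes. The counting of reads that match several genes was not given in the sources used here.

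Shared sequence also touched Zfp781 (chromosome 10), which stood at 18 and 37 untreated and 43 and 48 after IAA, with 96.3% of its 50-base words in other genes. The untreated libraries of Zfp781 lay further from each other than the higher of them lay from either IAA library. Zfp783 (chromosome 6), annotated without a coding sequence and overlapping Zfp956 on the same strand, stood at 47 and 60 untreated and 107 and 84 after IAA, a rise of 0.82. Zfp956 itself was counted at 166 and 177 untreated and 143 and 148 after IAA and was not called. Beside Zfp977 and Zfp936, which are described with their cluster, the other 12 rises were smaller, from 0.15 (Zfp646) to 0.49 (Zfp933).

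**Figure D2:**
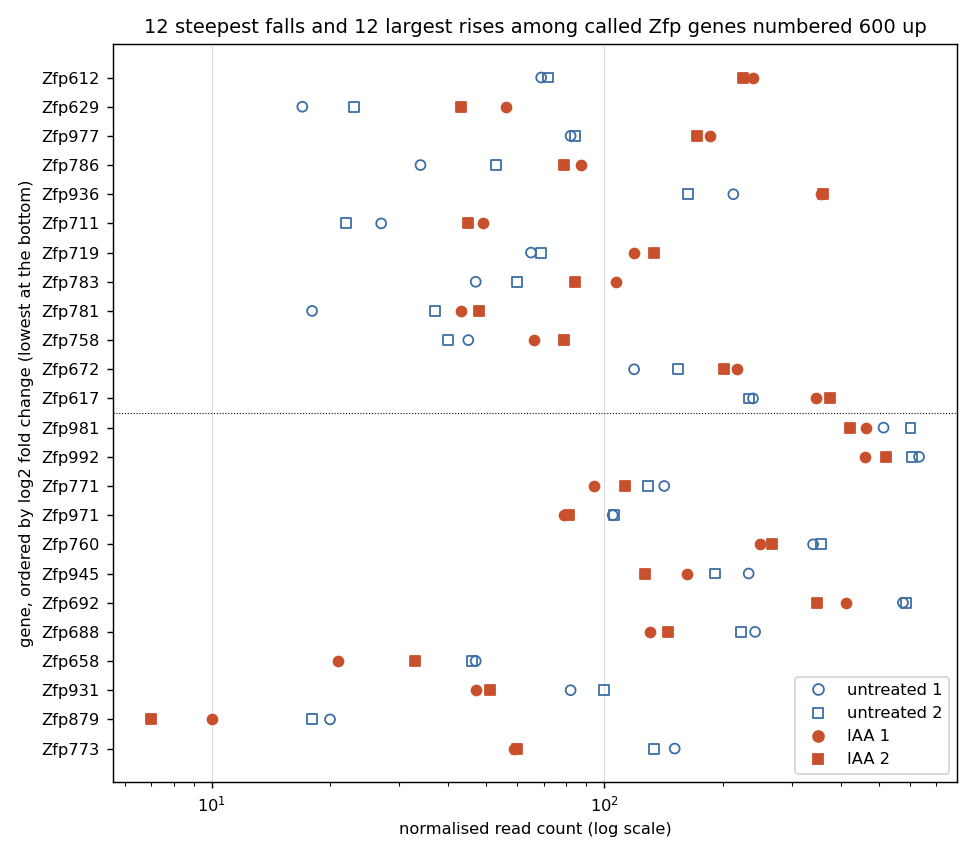
Normalised read count in each of the 4 libraries (log axis) for the 12 largest rises and the 12 steepest falls among called members, ordered by log2 fold change; open symbols are untreated and filled symbols IAA libraries. The groups do not overlap for any of these 24 genes, a property that the choice of called genes favours, and the widest gap is that of Zfp612, at 69 and 72 against 239 and 226.

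Among the falls, Zfp773 (chr7:7127073-7136755, minus strand), a KRAB gene with 9 fingers, was counted at 151 and 134 normalised reads untreated and 59 and 60 after IAA. It fell by 1.24 on the log2 scale (SE 0.15, limma adjusted p = 2.65e-06). The IAA libraries were almost equal and lay far below the untreated ones. Its neighbours Zfp954 and Zfp772, in the same cluster of 3, were not called, and the highest of the 3 log2 fold changes there was -0.07. Zfp879 (chromosome 11, KRAB) fell by 1.09 (SE 0.39, limma adjusted p = 0.032), but from 20 and 18 to 10 and 7 normalised reads, so few reads lie behind it. Zfp931 (chr2:178067695-178078476, KRAB) was counted at 82 and 100 untreated and 47 and 51 after IAA, a fall by 0.87 (SE 0.18, limma adjusted p = 0.00078).

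Zfp688 (chr7:127418967-127422068), a KRAB gene with only 2 fingers, stood at 242 and 223 untreated and 131 and 145 after IAA. It fell by 0.75 on the log2 scale (SE 0.11, limma adjusted p = 3.13e-05). Zfp692 (chr11:58307069-58314627), which has 5 fingers and no KRAB pattern, was the most abundant of the genes that fell by at least 0.5, at 576 and 587 untreated and 413 and 348 after IAA. It fell by 0.62 (SE 0.08, limma adjusted p = 6.29e-06), and the untreated libraries were tighter than the IAA ones. Zfp658 (chromosome 7, KRAB) was counted at 47 and 46 untreated and at 21 and 33 after IAA, a fall by 0.80 with a wide IAA group. Zfp945 (chromosome 17, KRAB) fell by 0.55, from 233 and 191 to 162 and 127.

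The smaller falls were sensitive to the scaling. Zfp760 fell by 0.43, Zfp992 by 0.34 and Zfp981 by 0.33 with the deposited scaling, and all 3 were also called with median-of-ratios factors. Zfp971 and Zfp771 fell by 0.39 each, and Zfp706 by 0.17, and these 3 calls were lost with median-of-ratios factors. Their log2 fold changes were then -0.29, -0.29 and -0.07, with limma adjusted p values of 0.14, 0.099 and 0.26. Zfp930, Zfp980 and Zfp961 are named after their values were seen. The first 2 lost their calls in the same way, at limma adjusted p values of 0.13 and 0.35, and Zfp961 kept its call at 0.035.

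The most abundant members stayed near 0. Zfp638, a large nuclear RNA- and DNA-binding protein that works with the HUSH complex to silence unintegrated retroviral DNA, was counted at 2313 and 2334 normalised reads untreated and 2202 and 2229 after IAA. Its log2 fold change was -0.07 and was not called. Zfp706, a small zinc finger protein known from screens for exit from embryonic stem cell self-renewal, stood at 1952 and 1940 untreated and 1728 and 1742 after IAA. The groups were tight and did not overlap, and the difference of -0.17 passed the test with the deposited scaling (limma adjusted p = 0.0062). Zfp710 stood at 1877 and 2020 untreated and 2005 and 1900 after IAA, with overlapping groups. Zfp871, the KRAB member of highest level, was counted at 1659 and 1582 untreated and 1670 and 1676 after IAA. It was not called with the deposited scaling (0.05) but passed the test as higher with median-of-ratios factors (0.15, limma adjusted p = 0.0087). Zfp740 and Zfp664 completed the 6 most abundant members, with log2 fold changes of -0.10 and -0.04.

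Levels of different genes can be compared per length of exon. Per kilobase, Zfp706 had the highest untreated level of the tested members, at 391 normalised reads untreated and 348 after IAA. It was followed by Zfp990 (324 and 335; named for this level), Zfp740 (301 and 281), Zfp692 (296 and 194) and Zfp710 (281 and 282). Differences between neighbours in this order were not tested. Zfp612 stood at 11.6 per kilobase untreated and 38.2 after IAA, Zfp629 at 2.97 and 7.36, and Zfp773 at 21.6 and 9.02. The members with the KRAB pattern had a median untreated level of 39.3 per kilobase and those outside it 56.1. The 13 members left out of the tests had means of at most 8.11 normalised reads, and none was at 0 in all 4 libraries. Several of them share most of their sequence with other genes, so their low values are uncertain.

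Members with studied roles were described whether or not they were called. Of 21 such genes 20 passed the filter (Zfp708 did not). Of the 20, 4 were called higher (Zfp711, Zfp809, Zfp827 and Zfp830) and 1 lower (Zfp706), against 11.1% and 28.9% of all genes tested. With median-of-ratios factors 7 were higher and none lower, against 20.4% and 20.5% of all genes tested. Zfp830, a nuclear protein of the spliceosome that early mouse embryos need, was counted at 219 and 210 untreated and 268 and 282 after IAA, a rise of 0.36 (SE 0.10, limma adjusted p = 0.0062). Zfp827, which brings the NuRD complex to telomeres, rose by 0.33 from 230 and 267 to 306 and 318 (limma adjusted p = 0.010). The other called members of this group were described above.

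The next 4 members with studied roles were not called with the deposited scaling. Zfp644, a partner of the H3K9 methyltransferases G9a and GLP, stood at 597 and 570 untreated and 591 and 656 after IAA, with overlapping groups and a log2 fold change of 0.09. Zfp687, found with ZMYND8 in a chromatin complex, stood at 798 and 789 untreated and 826 and 780 after IAA, and both untreated libraries lay between the IAA libraries. Zfp609, which works with Integrator and cohesin loading factor in neural progenitors, was counted at 1252 and 1395 untreated and 1365 and 1389 after IAA. Its groups overlapped, and its log2 fold change was 0.06. Zfp622, a factor of large ribosomal subunit maturation, had a log2 fold change of 0.07. Zfp609, Zfp622 and Zfp644 were called higher with median-of-ratios factors, at 0.16, 0.18 and 0.19.

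The remaining members with studied roles were not called with either scaling. Zfp819, a KRAB protein which interacts with TRIM28 in embryonic stem cells, stood at 131 and 109 untreated and 137 and 134 after IAA (0.18, not called). Zfp932, a KRAB protein which represses endogenous retroviruses, stood at 219 and 252 untreated and 210 and 211 after IAA (-0.16, not called). Zfp746, also called PARIS, a repressor outside the KRAB pattern that is degraded through parkin, had a log2 fold change of -0.10. Zfp652, Zfp703, Zfp768, Zfp800 and Zfp982 ranged from -0.13 to 0.17 and were not called. Zfp608 and Zfp618 had group means of at most 21 normalised reads and SEs of 0.40 and 0.35, so that differences of the size seen here (0.54 and -0.37) were not detectable at this depth.

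Split by the KRAB pattern, 16 of the 105 tested members with it (15.2%) were called higher and 13 (12.4%) lower, against 11.1% and 28.9% of all genes tested. Of the 45 tested members outside it, 8 (17.8%) were called higher and 3 (6.67%) lower. With median-of-ratios factors the counts were 29 higher and 10 lower with the pattern and 13 and 1 outside it, against 20.4% and 20.5% of all genes. The medians with and without the pattern were 0.06 and 0.01 with the deposited scaling, and 0.16 and 0.10 with median-of-ratios factors. The difference between these groups was not tested. The members with the pattern had a median of 12 fingers and those outside it 7, and 84 of 115 lay in a genomic cluster, against 12 of 48. With the narrow form of the pattern, 84 members matched, of which 82 were tested, with 14 higher and 9 lower. Among the 79 members with a coding sequence outside the narrow form, 10 were higher and 7 lower.

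**Figure D3:**
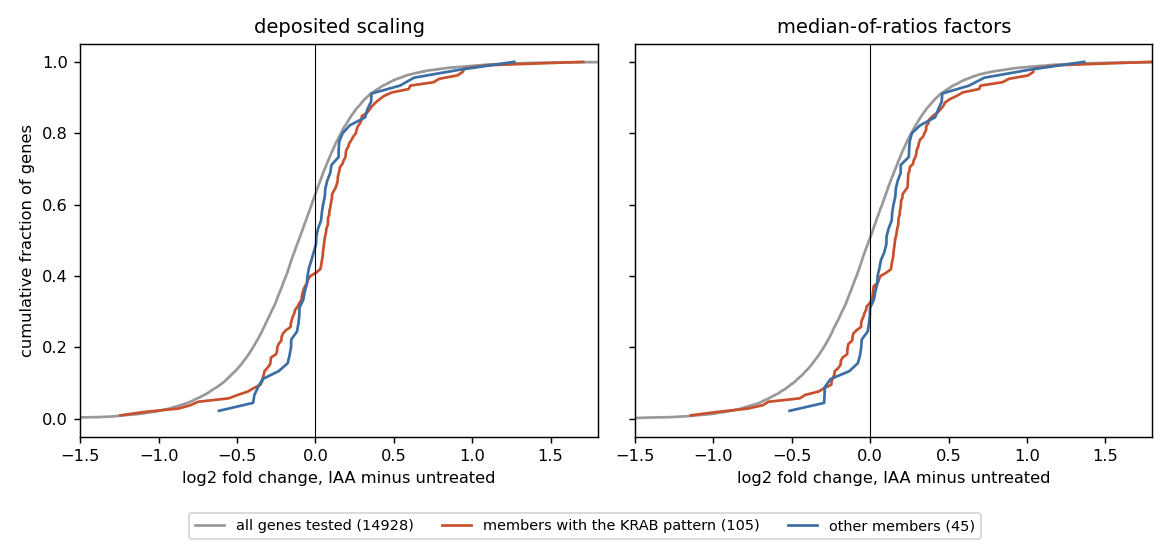
Cumulative fraction of genes by log2 fold change for all genes tested, members with the KRAB pattern and other members, with the deposited scaling (left) and median-of-ratios factors (right). Both member curves lie to the right of all genes over the middle of the range, with medians of 0.06 and 0.01 against -0.11 at the left, and all 3 curves move right by about 0.1 between the panels.

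The other genes of the pathway are the partners through which KRAB boxes silence. Of 32 listed symbols 31 were in the table (Fam208a is an older symbol of Tasor, which was), and all 31 were tested. With the deposited scaling 3 (9.68%) were called higher and 15 (48.4%) lower, against 11.1% and 28.9% of all genes tested. All 31 had a mean of at least 100 normalised reads. Tested among genes of that level alone, 4 (12.9%) were higher and 15 (48.4%) lower, against 15.45% and 38.6% of those genes. With median-of-ratios factors 7 (22.6%) were higher and 9 (29.0%) lower, against 20.4% and 20.5%. The median was -0.12 with the deposited scaling, beside -0.11 over all genes tested, and -0.02 beside -0.01 with median-of-ratios factors. Trim28, the common corepressor, was counted at 13290 and 13808 normalised reads untreated and 11874 and 11615 after IAA. It fell by 0.21 (SE 0.03, limma adjusted p = 1.91e-05). Setdb1, the methyltransferase, fell by 0.19 from 1611 and 1629 to 1385 and 1464, which was not called with median-of-ratios factors.

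Zfp57, a KRAB zinc finger protein that keeps methylation at imprinted loci, showed the steepest fall of the list, from 4666 and 4577 to 2812 and 2929, or by 0.69 on the log2 scale. Mphosph8, the chromodomain subunit of the HUSH complex, fell by 0.55, and Sumo2, a modifier used in TRIM28 silencing, by 0.54. Smarcad1, a chromatin remodeller that binds TRIM28, rose by 0.31, from 1476 and 1499 to 1844 and 1848. Hdac1 rose by 0.20 and Atf7ip, the cofactor of SETDB1, by 0.14. All but Setdb1 of these 8 genes kept their calls with median-of-ratios factors.

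Runs of at least 3 members with starts no more than 500 kb apart formed 18 genomic clusters holding 97 members. Called members were spread over most of them, often beside members that were not called. The cluster at chr7:42579783-43618285 held 8 members, all with the KRAB pattern, of which 4 were called higher (Zfp977, Zfp936, Zfp719 and Zfp975) and 1 lower (Zfp658). Zfp977 (chr7:42579783-42592547) was counted at 82 and 84 untreated and 186 and 172 after IAA, a rise of 1.10 (SE 0.13, limma adjusted p = 2.18e-06). Zfp936 (chr7:43114229-43192109) was counted at 213 and 163 untreated and 356 and 360 after IAA, a rise of 0.94 (SE 0.11, limma adjusted p = 1.55e-06). Both genes stood clear of their untreated libraries in both IAA libraries.

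Their near copies in that cluster differed. Zfp975, at 231 and 249 untreated and 295 and 279 after IAA, rose by 0.26 (limma adjusted p = 0.037). Zfp976 was counted at 500 and 611 untreated and 507 and 522 after IAA, with overlapping groups and a log2 fold change of -0.10. The upstream sequences of the 4 genes, printed above, were 89.9% to 93.6% identical in pairs. These 4 genes share between 8.47% and 30.4% of their 50-base words with other transcripts. Of Zfp975 and Zfp936, the KRAB box stretch of 39 bases was identical.

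The cluster at chr6:47819266-48086593 held 5 members, of which Zfp786, Zfp783 and Zfp777 were called higher and Zfp956 and Zfp746 were not called. The cluster at chr4:145510759-146539395 held 6 KRAB members, 3 called lower (Zfp992, Zfp981 and Zfp980) and none higher with the deposited scaling. It held 2 falls (Zfp992 and Zfp981) and 3 rises with median-of-ratios factors, Zfp990 at 0.15, Zfp987 at 0.24 and Zfp600 at 0.27. In this cluster the median share of 50-base words found in other genes was 57.1%. The cluster at chr2:177464733-178078476 held 4 members, 3 of them tested, with Zfp931 and Zfp971 called lower, Zfp971 with the deposited scaling alone. The largest cluster, 14 KRAB members at chr17:21383748-22867134, had 1 rise (Zfp758) and 2 falls (Zfp760 and Zfp945), and 2 rises and 2 falls with median-of-ratios factors. The 6 KRAB members at chr17:32765496-33033402, Zfp871 among them, had no call and lay between -0.14 and 0.14 with the deposited scaling, and Zfp871 alone was called with median-of-ratios factors.

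**Figure D4:**
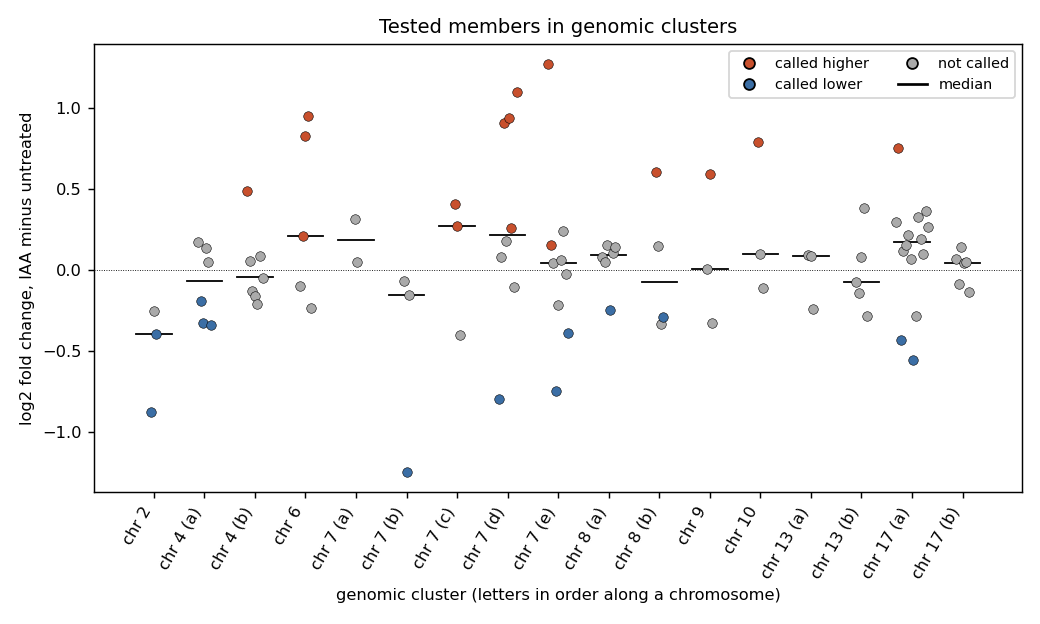
Log2 fold change, IAA minus untreated, of each tested member in the 17 genomic clusters with a tested member, coloured by call with the deposited scaling, with the median of each cluster as a bar. Clusters with rises and clusters with falls both hold members near 0, and the cluster labelled chr 7 (d), at chr7:42579783-43618285, spans -0.80 to 1.10.

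Among called members that were next to each other within 500 kb, 7 pairs were found, 4 called in the same direction and 3 in opposite directions. Zfp692 and Zfp672 on chromosome 11 lie on opposite strands with their ends 486 bases apart, and Zfp692 fell by 0.62 while Zfp672 rose by 0.63. Zfp658 and Zfp719 lie 4148 bases apart on the same strand, at -0.80 and 0.91. Zfp617 and Zfp961 lie 16408 bases apart on the same strand, at 0.60 and -0.29. The 4 pairs in the same direction were Zfp971 with Zfp931, Zfp992 with Zfp981, Zfp786 with Zfp783 and Zfp975 with Zfp936. The call of Zfp971 was lost with median-of-ratios factors. Counting by strand was not given in the sources used here, and exons of 8 called members overlap exons of another gene.

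Promoters of 142 members were in the RefSeq table, as 172 windows. Aligned in their 250 upstream bases, 36 genes fell into 9 groups of near copies, defined by at least 80% identity over at least 150 bases. They formed 90 pairs of genes, and with the deposited scaling both genes were called in 5 pairs, each time in 1 direction. With median-of-ratios factors both were called in 13 pairs, 9 in 1 direction and 4 in opposite directions. In the group of Zfp936, Zfp975, Zfp976 and Zfp977, 3 of 4 rose with both scalings. In the group of Zfp931 and Zfp971 with 8 further genes, 4 were tested and 2 fell. Of these, Zfp971 kept a log2 fold change of -0.29 but not its call with median-of-ratios factors. In the group of 9 members of chromosome 4 around Zfp600, all tested, 2 fell (Zfp980 and Zfp981) with the deposited scaling and the log2 fold changes ran from -0.33 to 0.17. With median-of-ratios factors 1 of the 9 was lower (Zfp981, -0.23) and 4 were higher (Zfp600, Zfp979, Zfp987 and Zfp988, 0.16 to 0.27). Pairs within a group share sequence and libraries, so they are no independent points.

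**Figure D5:**
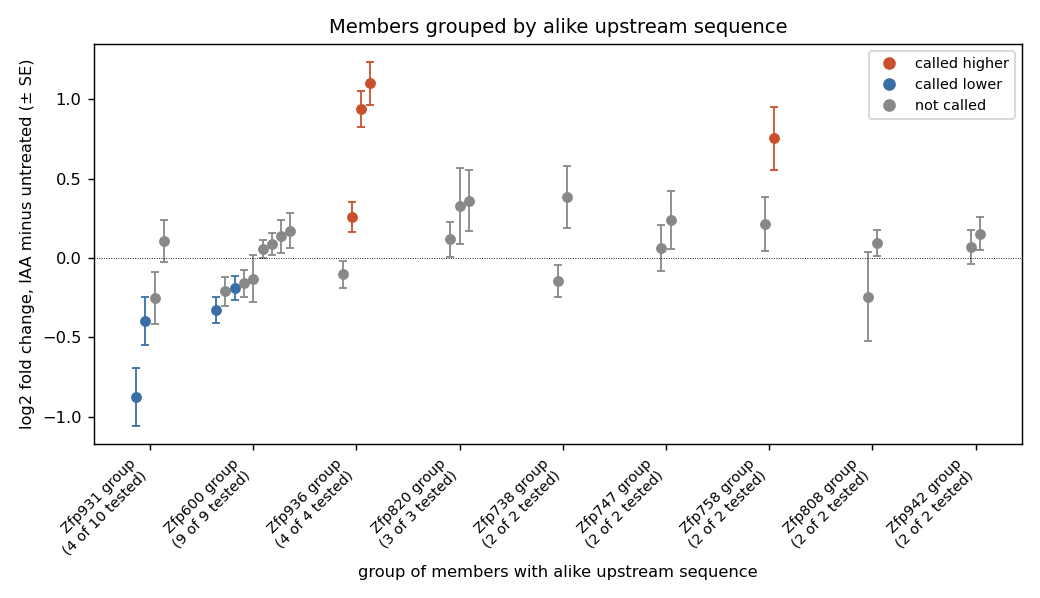
Log2 fold change, IAA minus untreated, with its SE, for tested members grouped by alike sequence upstream of the start, coloured by call, with the deposited scaling. Called members of 1 group lie on the same side of 0 at this scaling, as in the Zfp936 group at 0.26, 0.94 and 1.10, but with median-of-ratios factors the group around Zfp600 held 4 rises and 1 fall.

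Short motifs were searched on both strands in the whole windows, from 250 bases before to 50 after the start. None of the motifs contains another, but the ETS and YY1 motifs can share the letters AAG. The ETS motif CCGGAAG was found in 18.6% of the 172 windows and in 8.86% of the 32851 RefSeq windows. The share was 15.1% in the 159 windows of tested members and 61.5% (8 of 13) in those of untested members, several of which are near copies on chromosome 2. The SP/KLF motif GGGCGGG was found in 34.9% of the member windows and 25.6% of all. The TATA motif TATAAA was found in 5.23% and 13.6%, and the YY1 motif AAGATGG in 7.56% and 6.34%. The NRF1 motif GCGCATG was found in 6.40% and 3.91%, the ZNF143 motif ACTACAA in 3.49% and 3.24%, the CRE motif TGACGTC in 1.74% and 3.21%, and the Kaiso motif CTCGCGA in 0% and 1.93%. Among tested members, the share with the ETS motif was 15.4% in windows of those called higher, 15.4% of those called lower and 15.0% of those not called. The median number of CpG was 11 in the windows of members and 7 over all. Windows of members called higher had a median of 17.5 CpG, those called lower 7 and those not called 11. The first came from 26 windows of 21 genes and the second from 13 windows of 13 genes. Some genes called higher are thus counted more than once, and the windows include near copies. The ETS letters, read as CTTCCGG, lie near the 3′ end of the printed sequences of Zfp977 and Zfp936. The printed sequence of Zfp976 ends inside the matching stretch, so it does not show whether the letters are present there. Zfp975 differs from them at that place.

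Shared sequence touched called members in both directions. Over 20% of the 50-base words of 38 members occur in transcripts of another gene. Of these, 30 were tested, with 3 rises (Zfp781, Zfp617 and Zfp975) and 5 falls (Zfp931, Zfp971, Zfp980, Zfp981 and Zfp992). Reads of these 8 genes could be split between copies, so their values are uncertain. With median-of-ratios factors the 30 had 10 rises and 3 falls. Among the 123 tested members at or under 20%, 22 were called higher and 11 lower, with a median log2 fold change of 0.05. With median-of-ratios factors 33 of them were higher and 8 lower. Of all genes tested, 11.1% were called higher and 28.9% lower with the deposited scaling, and 20.4% and 20.5% with median-of-ratios factors.

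At the number that bounds the set, the members just inside were Zfp600, Zfp605 and Zfp606, with log2 fold changes of 0.17, 0.06 and 0.05. The genes just outside were Zfp599, Zfp598 and Zfp597, at 0.25, -0.01 and 0.01. Of the 197 Zfp genes with a lower number, 187 were tested. With the deposited scaling 31 (16.6%) were higher and 34 (18.2%) lower, with a median of 0.04. The members had 16.3%, 10.5% and 0.05, and 11.1% and 28.9% of all genes tested were called. With median-of-ratios factors 58 (31.0%) were higher and 23 (12.3%) lower, with a median of 0.13. The members then had 28.1%, 7.19% and 0.15, against 20.4% and 20.5% of all genes tested, so the lower-numbered genes also had more rises than falls. The difference between the genes on either side of this number was not tested.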

How the data were processed

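Poly(A) RNA of 4 libraries, 2 untreated and 2 after IAA, was compared. Groups and replicate numbers came from the sample titles. The members and gene lists were chosen with earlier results of these data known. The submitters' processing notes list, with no role for each, the builds mm10 and dm6 and the tools DESeq2, featureCounts, STAR, Bowtie2, cutadapt 1.18, deepTools and SAMtools. The annotation, the strand setting, the handling of reads that match several genes and the role of the Drosophila spike-in in the scaling were not given in the sources used here.

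Each of the 4 library columns that the authors deposited holds scores, called normalised read counts: read counts divided by a size factor (0.88 and 0.87 untreated, 0.98 and 0.95 IAA) and rounded, as worked out from the values. The deposited mean is a signal, the unrounded mean over the libraries, from which whole reads were recovered for 100% of genes (tolerance 0.001). A log2 fold change, a p-value and its adjusted form, all DESeq2 output by their column names, were also deposited by the authors, as was an up or down label.

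Genes with a mean of at least 10 (14928 of 30282) were tested with limma 3.58.1 (R 4.3.3) on log2(value + 1) (empirical Bayes with trend, Benjamini-Hochberg over all genes tested, called at an adjusted p under 0.05), and the procedure was tested on simulated data. Fold changes on this scale understate changes of low genes. The columns hold rounded values after scaling, so count models were not fitted, and voom, limma's method for read counts, was applied to the recovered reads as an alternative. Median-of-ratios factors from the recovered reads were 0.988 and 0.992 untreated and 1.04 and 0.994 IAA. Alternatives were these factors, library totals, other filters, pseudocounts of 0.5 and 5, other thresholds, a block for the replicate number, each library left out in turn and the authors' adjusted p-values.

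Named members are the 12 largest rises and 12 steepest falls among called members, the 6 of highest mean level, 21 with a studied role and those next to the number 600. Of the partner genes, Trim28, Setdb1 and the 3 called with the largest change each way are named. Other members were named after their values were seen. Gene structures and translations are those of GENCODE M21 on GRCm38, in which all 166 members were found by identifier. The planned RefSeq proteins were not used here. The KRAB pattern was widened after looking at coding sequences that its narrow form missed. The thresholds for alike promoters, the motif list, the printed sequences, the sizes of 0.25 and 0.5 and the bound of 20% were chosen after seeing the data, with alignments made in Biopython 1.88.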

Additional observations from a re-analysis of the deposited data

How the results depend on the processing

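With 2 libraries per group, the calls rest on a spread pooled over genes. Under other scalings, the rises among members numbered 43 (median-of-ratios factors), 44 (library totals) and 43 (voom on recovered reads) in place of 25, with medians of 0.15, 0.15 and 0.15 in place of 0.05. Rises with the KRAB pattern were then 29, 29 and 28 in place of 16, and outside it 13, 14 and 14 in place of 8. Falls outside it were 1, 1 and 1 in place of 3. Falls outside the narrow form of the pattern were 3, 3 and 3 in place of 7. The partner genes had 7, 7 and 7 rises in place of 3, and 9, 9 and 9 falls in place of 15. Over all genes tested, rises were then 20.36%, 20.65% and 20.69% in place of 11.05%. Falls over all genes tested were 20.46%, 19.98% and 19.99% in place of 28.89%. The rises of the partner genes, 22.58% in each case, lay near the share over all genes. The deposited factors lower the IAA libraries against the untreated ones, which sets the direction of this shift. Without the filter on low values, 42 members had an unadjusted limma p under 0.05. The calls were then 2 higher and 1 lower in all members, against 0.59% and 2.11% of all genes. They were 2 and 1 with the KRAB pattern, 0 and 0 outside it and 1 and 5 in the partner genes. By the authors' adjusted p-values, the calls were 5 and 3, 5 and 2, 0 and 1, and 1 and 8, in the same order, against 2.47% and 9.57% of the genes with an adjusted p. At an adjusted p under 0.01, members were 15 higher and 9 lower, 10 and 7 with the KRAB pattern, and 4 higher outside it. Zfp692 and Zfp706, both outside the pattern, were among the falls, at limma adjusted p values of 6.29e-06 and 0.0062. The share over all genes at 0.01 is not given here, so these counts have no background beside them.

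Leaving out any 1 library, limma on log2 values made 0 calls in every list and among all genes, with 30 to 35 members at an unadjusted p under 0.05 and a median of 0.0080 to 0.049. The group left with 1 library then takes its spread from the other. By voom, added after seeing this, leaving out 1 library gave 26 to 35 rises and 6 to 8 falls. With the KRAB pattern these were 17 to 23 and 5 to 7, outside it 8 to 11 and 1 to 1, and in the partner genes 6 to 7 and 8 to 10. Each of these fits left 1 group with 1 library, and the share of calls over all genes is not given for them. These counts therefore do not show whether a list differed from all genes. The median over members by voom was then 0.11, 0.13, 0.13 and 0.16. Over all genes tested it ran from -0.005 to 0.002, and over the partner genes from -0.030 to 0.016. The cause of the differences between limma and voom, and between the libraries left out, was not tested. With the replicate number as a block, 24 members were higher and 15 lower, and of the genes named by rule only Zfp971 lost its call. The numbers are not known to pair the libraries, since same-numbered libraries had deviations with a correlation of 0.0015 over genes. Pseudocounts of 0.5 and 5 changed no call among the named genes. No called gene named by rule, nor the median over members, changed direction under these alternatives. Genes under about 50 normalised reads had SEs of 0.2 or more, so only large changes could be called there.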

Other observations

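The 13 members left out of the tests were Zfp641, Zfp663, Zfp708, Zfp784, Zfp831, Zfp853, Zfp872, Zfp965, Zfp966, Zfp967, Zfp968, Zfp972 and Zfp973. Zfp972 was the most abundant of them, at 8 and 7 normalised reads untreated and 9 and 8 after IAA. Of the others, Zfp966 reached 7 in 1 IAA library and stood at 1 in the other. Zfp965, Zfp966, Zfp967, Zfp968, Zfp972 and Zfp973 all lie on chromosome 2 and fell in the group of alike promoters that holds Zfp931. From 56.5% (Zfp972) to 100% (Zfp967) of their 50-base words occur in transcripts of other genes. The exons of Zfp708 and Zfp784 overlap exons of other genes over 100% of their length. Reads of all these genes could be assigned elsewhere, so their low values and their order are uncertain.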
